A study of Mus musculus with 32 samples.

Results

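De novo lipogenesis is the making of fatty acids from carbohydrate carbon. Its genes were followed here in the mouse preadipocyte line 3T3-L1, which stores fat once hormones have made it differentiate, with and without knockdown of Zbtb9. Zbtb9 codes for a protein with a BTB domain and zinc fingers. The members are 10 genes, taken by symbol from the 20560 genes of the deposited table: Acly, Acaca, Acacb, Fasn, Elovl6, Scd1, Scd2, Me1, Srebf1 and Mlxipl. All 10 were found, and 9 passed the filter on low values in every comparison. Mlxipl had 0 to 5 reads in each library and was never tested.

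RNA was sequenced in 32 libraries from 3T3-L1 cells at days 0, 3, 7 and 11 of differentiation. Each day had 4 libraries with a scramble control short hairpin RNA (shCtrl, labelled wild type) and 4 with Zbtb9 knockdown, 2 from shRNA 1 and 2 from shRNA 2. All cells, controls included, were induced at day 0, 2 days after confluence, in medium with 1 µM dexamethasone, 0.5 mM isobutylmethylxanthine and 167 nM insulin. The same insulin dose alone was given from day 3, and plain medium from day 7. Both arms therefore carry a hairpin and the same hormone course. The labels number the libraries of a group as biological replicates and do not say whether these were separate infections or dishes, so the p-values measure the spread between these libraries.

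In fat cells, citrate leaves the mitochondria and is split by Acly into acetyl-CoA, which the carboxylases Acaca and Acacb turn into malonyl-CoA. Fasn builds palmitate from these units with NADPH, part of which the malic enzyme Me1 supplies. Elovl6 lengthens palmitate to stearate, and the desaturases Scd1 and Scd2 turn saturated into monounsaturated fatty acids. SREBP-1, the product of Srebf1, and ChREBP, the product of Mlxipl, are the transcription factors best known for driving these genes with insulin and with glucose.

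Libraries held 22280326 to 31073666 reads in genes, as rebuilt from the deposited log2 values. Values below are the deposited log2 values, unless named as normalized reads, which are rebuilt reads scaled by each library's size factor. Zbtb9 itself had few reads. Its normalized reads in knockdown were 0.619, 0.506, 0.427 and 0.545 of control on days 0, 3, 7 and 11. By hairpin, they were 0.538, 0.361, 0.459 and 0.885 of control with shRNA 1 and 0.700, 0.651, 0.396 and 0.206 with shRNA 2. With both hairpins together, the log2 difference of Zbtb9 did not pass at day 0 (-0.21, adjusted p = 0.271 from limma). It passed at day 7 (-0.35, SE 0.12, adjusted p = 0.0288, 0.0049 to 0.119 over 17 alternatives). That call was lost without shRNA 1 replicate 1, shRNA 2 replicate 2 or control replicate 2 or 3. At day 11 it did not pass (-0.28), though it did without the library labelled shRNA 1 replicate 2 (-0.42, adjusted p = 0.0323) and when all 32 libraries shared 1 fit (adjusted p = 0.0490). Zbtb9 was not tested at day 3, where it was under the filter. In the library labelled shRNA 1 replicate 2 of day 11 it stood at 19.3 normalized reads, inside the control range of 12.07 to 19.96. Of its exon bases, 84.4% lie in exons of other genes, among them Ggnbp1 on the same strand, so these counts may miss reads or include reads of a neighbour.

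The labelled stage was checked with marker genes. Adipocyte markers summed to between 47778.8 and 51873.9 normalized reads in day 7 controls and to between 131951.7 and 203214.4 in day 7 knockdown libraries. Of 10 such markers 9 were tested, and all 9 were called higher in knockdown on each of days 3, 7 and 11, with medians of 0.90, 1.99 and 1.90 (log2 difference), where 14.6%, 24.9% and 16.8% of all genes were called higher. At day 0 the markers Adipoq, Plin1, Cfd, Lep and Slc2a4 had 3 reads or fewer in every library of either arm. Preadipocyte and fibroblast markers summed to between 481247.9 and 533446.6 normalized reads in day 7 controls and to between 409885.8 and 448488.3 in knockdown, and 8 of 10 were called lower, where 22.6% of all genes were. In bulk RNA, a different share of cells that have become fat cells and a different amount of RNA per cell cannot be told apart. The part of these marker shifts in the results below was not tested. Of 8 macrophage markers 6 were in the table, summing to between 279.1 and 806.5 normalized reads per library. Of the 3 tested, 1 was called lower in knockdown at day 3 (Cd14) and 2 at day 7 (Cd14 and Lyz2, median of the 3 -0.40), and none was called higher on any day. The defining markers Ptprc and Fcer1g had 3 reads or fewer in every library.

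The outcome for the lipogenesis genes was uneven along the pathway. At day 7, 7 of the 9 tested members were called in knockdown against control, 6 higher and 1 lower, where 47.6% of all 13299 tested genes were called, 24.9% higher and 22.6% lower. Scd1, Scd2, Fasn and Me1 rose most, Acaca and Acacb rose slightly, Elovl6 fell, and Acly and Srebf1 did not pass. At day 11, again 6 members were called higher and 1 lower, against 33% of all 13281 tested genes, 16.8% higher and 16.2% lower. Srebf1 was then among those that rose, and Acacb was not. At day 0 no member was called in this fit (3.25% of all genes were, 0.817% higher and 2.44% lower), 3 members had an unadjusted p under 0.05, and limma's voom on rebuilt reads also called 0. At day 3 only Me1 was called (26.7% of all genes were, 14.6% higher and 12.1% lower). The hairpins were also fitted as separate groups, so that their difference is no part of the spread. That fit called 4 members at day 0 (Fasn and Me1 higher, Scd1 and Srebf1 lower), where it called 3340 of all 13216 tested genes. At day 3 it called 5 (Me1, Scd1, Acaca and Fasn higher, Srebf1 lower), where it called 5311 of all 13139. Each hairpin is given separately below. With libraries centred on their median, Srebf1 was called as well at day 3, lower in knockdown, which made the split 1 higher and 1 lower.

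**Figure D1:**
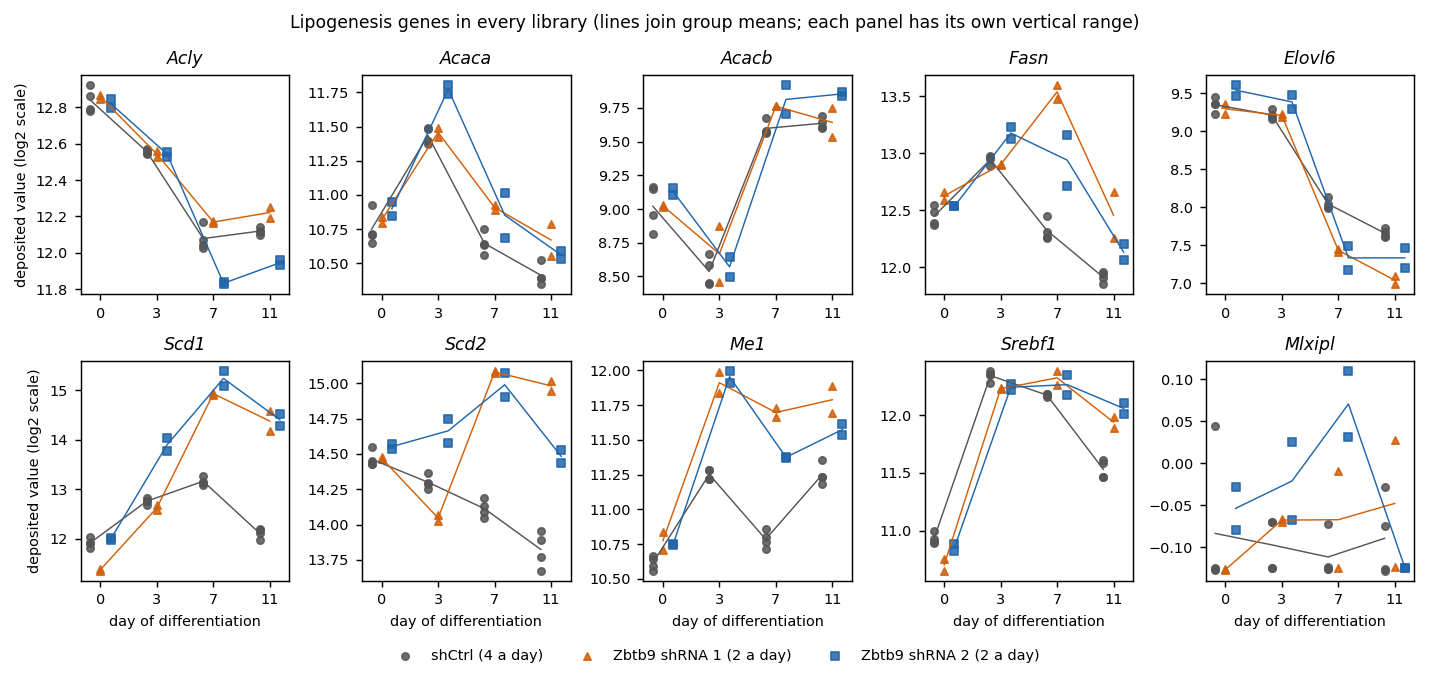
Deposited log2 value (vertical axis, own range in each panel) of each of the 10 genes against day, 1 point per library, with lines through group means. Scd1 control libraries lie between 13.09 and 13.28 at day 7 and all 4 knockdown libraries between 14.91 and 15.39, while Elovl6 falls in both arms and lies lowest in knockdown, and Mlxipl stays between -0.13 and 0.11.

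The stretches upstream of Acly, Fasn and Elovl6 are shown because these 3 enzymes of the same pathway took different courses: at day 7 Fasn was called higher, Elovl6 lower and Acly neither. They come from the RefSeq promoter table on build GRCm38.p6, read 5′ to 3′ on the gene's strand, and end before the gene begins. For Elovl6 the last 31 bases of the table's window lie within the GENCODE gene and were left out. The capitals mark CCAAT boxes (CCAAT or ATTGG) and GC boxes (GGGCGG or CCGCCC).
Acly, chr11:100528001-100528250, minus strand: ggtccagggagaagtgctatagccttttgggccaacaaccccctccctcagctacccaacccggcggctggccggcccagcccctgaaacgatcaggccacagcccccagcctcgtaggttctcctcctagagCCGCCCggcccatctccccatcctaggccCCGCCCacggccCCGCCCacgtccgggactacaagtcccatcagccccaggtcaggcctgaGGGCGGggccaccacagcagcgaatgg
Fasn, chr11:120824548-120824797, minus strand: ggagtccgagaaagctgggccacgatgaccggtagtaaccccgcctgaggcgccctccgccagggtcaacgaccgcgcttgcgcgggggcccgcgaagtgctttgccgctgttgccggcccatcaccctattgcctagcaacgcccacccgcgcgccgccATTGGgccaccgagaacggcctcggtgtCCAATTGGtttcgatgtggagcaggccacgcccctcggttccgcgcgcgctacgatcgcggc
Elovl6, chr3:129532136-129532354, plus strand: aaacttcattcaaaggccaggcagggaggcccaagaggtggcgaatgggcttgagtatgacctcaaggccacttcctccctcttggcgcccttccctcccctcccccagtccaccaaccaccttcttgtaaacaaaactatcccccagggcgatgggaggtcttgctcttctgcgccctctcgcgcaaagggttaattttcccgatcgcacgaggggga
Acly held 4 GC boxes and no CCAAT box. Fasn held 3 CCAAT matches on the 2 strands, of which 2 overlap by 2 bases, and no GC box. Elovl6 held none of the motifs searched. Besides these boxes, the sterol regulatory element TCACNCCAC and the E-box CACGTG were searched on both strands. Of 32851 promoter windows of 250 bases in the table, 33.85% held a CCAAT box, 32.74% a GC box, 6.02% the E-box and 1.05% the sterol element. The table matched 8 of the 10 members with 12 windows, and Scd1 and Scd2 were not among them. A CCAAT box was found in 6 of these 12 windows, from 5 members, and a GC box in 5 windows, from 4 members, and only Mlxipl held the E-box or the sterol element. These are matches of letters in a short window, not binding sites.

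Control cells give the course of the pathway without knockdown. From day 0 to day 3, under the full hormone mix, 5 members rose and 3 fell, with 76.6% of all 13421 tested genes called, 38.3% higher and 38.2% lower. Srebf1 rose most, by 1.41 (SE 0.04), followed by Scd1 (0.84), Acaca (0.69), Me1 (0.64) and Fasn (0.50). Acacb (-0.48), Acly (-0.28) and Scd2 (-0.16) fell. Scaling every library to the same total moves all genes by -0.13 in this comparison, and no member changed direction under it. Of the 5 that had risen, 4 then fell. From day 3 to day 7, with insulin alone, 7 members fell and 2 rose, where 74.2% of all genes were called, 37.6% higher and 36.6% lower. Elovl6 fell by 1.17, Acaca by 0.79, Fasn by 0.62, Acly by 0.48 and Me1 by 0.47, and Scd2 and Srebf1 by 0.19 and 0.17. Acacb rose by 1.06 (SE 0.07) and Scd1 by 0.40. When all 32 libraries shared 1 fit, the Scd1 and Scd2 changes of this step (adjusted p = 0.105 and 0.166) and the Scd2 fall of the step before (0.225) were no longer called.

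From day 7 to day 11, after insulin was withdrawn, 6 members fell in control cells and Me1 alone rose, by 0.46 (55% of all genes were called, 28.9% higher and 26.1% lower). Scd1 fell by 1.05 (SE 0.05) and Srebf1 by 0.64, the 2 largest falls among the members, and Fasn fell by 0.41, Elovl6 by 0.38, Scd2 by 0.29 and Acaca by 0.23. Acly and Acacb both differed by 0.04 and did not pass. Over the same steps the 9 tested adipocyte markers had median changes of 1.53, 2.86 and -0.58, so at day 7 most lipogenesis genes were falling in control cells while the markers were rising.

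In knockdown cells, 5 members rose and 2 fell from day 0 to day 3, where 75.1% of all 13456 tested genes were called, 37.7% higher and 37.3% lower. With libraries scaled to equal totals, which moves all genes by -0.16, the split was 4 and 3. The rise of Fasn (0.46, adjusted p = 0.0225 and 0.0942 after scaling) was then no longer called, and a further member was called lower. The Fasn call was also lost without shRNA 1 replicate 1 of day 0 or without either shRNA 2 library of day 3 (adjusted p up to 0.0735). Scd1 rose by 1.58, Srebf1 by 1.46 and Me1 by 1.17. From day 3 to day 7 Scd1 rose by 1.82 (SE 0.22) and Scd2 by 0.68 (SE 0.17), Acacb rose by 1.17, and Elovl6 fell by 1.91, Acaca by 0.73, Acly by 0.54 and Me1 by 0.40, where 71.6% of all genes were called, 37.5% higher and 34.1% lower. Fasn stood at 0.20 (95% interval -0.16 to 0.56) and did not pass, in a step where it fell in control cells. From day 7 to day 11 Fasn fell by 0.94, Scd1 by 0.70, Srebf1 by 0.29 and Acaca by 0.26, with 55.2% of all genes called, 27.7% higher and 27.4% lower. Equal totals added a rise of Me1 to these 4 falls, and leaving out shRNA 2 replicate 2 of day 11 took the Scd1 call away (adjusted p = 0.0545).

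Per kilobase of exon, the members spanned a wide range of levels. In day 0 control cells the order was Scd2 at 4139 ± 173 normalized reads per kilobase (SD, n = 4), Acly at 1405 ± 69.2, Scd1 at 772 ± 51.4, Fasn at 509 ± 30.7, Me1 at 400.02 ± 14.0, Srebf1 at 338 ± 11.5, Elovl6 at 107 ± 7.31, Acaca at 101 ± 9.06 and Acacb at 53.6 ± 6.57. Elovl6 and Acaca did not differ beyond their spread. The length used is that of all exons of a gene, which for Acaca is 17074 bases, against 9513 in its longest coding transcript. How Acaca compares with Elovl6 therefore depends on the length used. By day 7 Scd2 and Scd1 led control cells, at 3222 ± 134 and 1880 ± 109. Srebf1 (828 ± 6.47) and Acly (814 ± 37.3) then lay within their spread, and so did Fasn (466 ± 30.9) and Me1 (453 ± 19.9). In day 7 knockdown cells Scd1 stood at 7479 ± 1225 and Scd2 at 6233 ± 375, and Scd1 was above Scd2 in each of the 4 libraries without overlap (lowest Scd1 6543.6, highest Scd2 6464.2). Elovl6 was lowest of the 9 at 23.7 ± 2.57. The 10 members together took 0.175% of all reads in day 7 control libraries (0.1725 to 0.1782%) and 0.360% in knockdown (0.3355 to 0.3939%). At day 11 these shares were 0.136% (0.1317 to 0.142%) and 0.268% (0.2408 to 0.311%), without overlap between the arms.

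**Figure D2:**
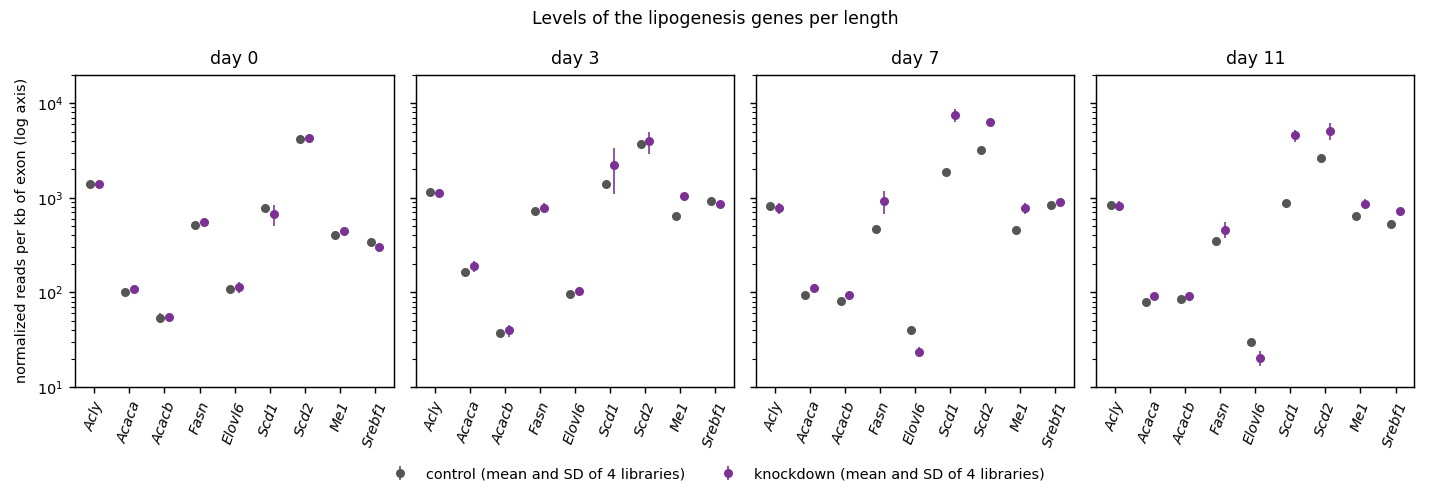
Normalized reads per kilobase of exon (log axis) of the 9 members with reads above the floor, by day, as mean and SD of 4 libraries per arm. Scd1 and Scd2 stand highest at day 7, at 7479 and 6233 in knockdown against 1880 and 3222 in control, and Elovl6 lowest, at 23.7 against 39.9.

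Acly (ENSMUSG00000020917, chromosome 11, 100476353 to 100528000, minus strand, GENCODE M21 on GRCm38) makes the acetyl-CoA that starts the pathway. At day 7 its control libraries read 12.07, 12.03, 12.04 and 12.17, its shRNA 1 libraries 12.17 and 12.16, and its shRNA 2 libraries 11.83 and 11.84. The shRNA 2 libraries were thus below all controls and the shRNA 1 libraries at the top of the control range. With both hairpins together the difference was -0.08 (95% interval -0.25 to 0.09), and it did not pass on any day. Set against control alone, shRNA 2 was lower by -0.25 (SE 0.05, adjusted p = 0.000231) at day 7 and by -0.17 (SE 0.05, adjusted p = 0.00875) at day 11, and shRNA 1 did not pass (0.09 and 0.10). Leaving out shRNA 2 replicate 2 ended the day 11 call (adjusted p = 0.0776).

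Acaca and Acacb code for the acetyl-CoA carboxylases, the first in the cytosol and the second at the mitochondrial surface, where its malonyl-CoA holds back fatty acid uptake. Acaca (ENSMUSG00000020532, chromosome 11, 84129672 to 84401651, plus strand) read 10.56, 10.64, 10.75 and 10.63 in day 7 controls, 10.93 and 10.89 with shRNA 1, and 10.69 and 11.02 with shRNA 2. A single knockdown library fell inside the control range, and the difference was 0.23 (SE 0.07, adjusted p = 0.00995, 0.000704 to 0.0399 over 18 alternatives). At day 11 all 4 knockdown libraries (10.53 to 10.79) lay just above the highest control (10.52), and the difference of the means was 0.20 (SE 0.07, adjusted p = 0.0376). Among other settings, that call was lost with equal totals (adjusted p = 0.066), without the filter, without the variance trend, and without any of 5 single libraries: shRNA 1 replicate 1, shRNA 2 replicate 2 or control replicate 1, 2 or 4 (adjusted p up to 0.105). By hairpin at day 11, Acaca was called higher with shRNA 1 (0.26, adjusted p = 0.00693). With shRNA 2 its normalized reads were 1.11 times control and it did not pass.

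Acacb (ENSMUSG00000042010, chromosome 5, 114146535 to 114250761, plus strand) read 9.57, 9.58, 9.57 and 9.68 in day 7 controls and 9.76, 9.76, 9.70 and 9.92 in knockdown. All 4 knockdown libraries were just above all controls, and the difference of the means was 0.19 (SE 0.06, adjusted p = 0.0240). Among other settings, it no longer passed with equal totals (adjusted p = 0.0741), when all 32 libraries shared a fit (adjusted p = 0.0598), and without shRNA 2 replicate 2 or control replicate 1, 2 or 3 (adjusted p up to 0.0788). At day 11 the difference was 0.11 (95% interval -0.05 to 0.28) and did not pass, though it did without the library labelled shRNA 1 replicate 2 (0.18, adjusted p = 0.0352).

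Fasn (ENSMUSG00000025153, chromosome 11, 120805846 to 120824547, minus strand) codes for fatty acid synthase. At day 7 it read 12.27, 12.31, 12.26 and 12.45 in control libraries, 13.60 and 13.47 with shRNA 1, and 12.72 and 13.16 with shRNA 2. Every knockdown library was above every control, and the shRNA 1 libraries were highest. Normalized reads were 1.98 times control, and the log2 difference was 0.92 (SE 0.19, adjusted p = 0.00482). The hairpins differed from each other by 0.60 at day 7, shRNA 2 being lower (SE 0.14, adjusted p = 0.0214). Without either shRNA 1 library or control replicate 3 that difference no longer passed (adjusted p up to 0.111).

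At day 11 Fasn had fallen in both arms, to 11.94, 11.85, 11.90 and 11.96 in control libraries and to 12.66, 12.26, 12.20 and 12.06 in knockdown. The arms still did not overlap, and normalized reads were 1.33 times control (log2 0.38, SE 0.11, adjusted p = 0.0198). Leaving out control replicate 2 or 3, among other settings, ended that call (adjusted p = 0.0555 and 0.0506). By hairpin at day 11, Fasn was called higher with shRNA 1 (1.49 times control, log2 0.55, adjusted p = 0.000321). With shRNA 2 it stood at 1.17 times control and did not pass. Before day 7 the arms overlapped: the difference was 0.13 at day 0 (95% interval 0.02 to 0.24, adjusted p = 0.186) and 0.09 at day 3 (-0.05 to 0.24, adjusted p = 0.335). With the hairpins as separate groups both differences passed (adjusted p = 0.00551 and 0.0212).

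Elovl6 (ENSMUSG00000041220, chromosome 3, 129532355 to 129638495, plus strand) was the only member called lower with both hairpins together. At day 7 it read 8.00, 8.00, 8.04 and 8.14 in control libraries, from 239 to 263 reads each, and 7.42, 7.45, 7.49 and 7.18 in knockdown, from 132 to 158 reads each. All 4 knockdown libraries were below all controls. Normalized reads were 0.595 of control, with a log2 difference of -0.66 (SE 0.10, adjusted p = 4.12e-05). At day 11 the ratio was 0.685 (log2 -0.47, SE 0.11, adjusted p = 0.00672), again without overlap (6.98 to 7.47 against 7.61 to 7.73). Both hairpins were called lower on both days, by -0.61 and -0.71 at day 7 and by -0.62 and -0.33 at day 11. For shRNA 2 at day 11, Elovl6 no longer passed without replicate 2 of that hairpin (-0.19, adjusted p = 0.330) or without control replicate 2, 3 or 4 (adjusted p up to 0.0749). Elovl6 had fallen in control cells as well since day 3, so knockdown and control moved the same way and knockdown further. The desaturases, the next enzymes on its product, were called in the other direction.

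Scd1 (ENSMUSG00000037071, chromosome 19, 44394455 to 44407879, minus strand) is known as the main desaturase of fat cells. Here its mean reads per kilobase were below those of Scd2 in control cells on every day, and above them only in day 7 knockdown cells. At day 7 Scd1 read 13.28, 13.14, 13.09 and 13.13 in control libraries, 14.95 and 14.91 with shRNA 1, and 15.08 and 15.39 with shRNA 2. Normalized reads ran from 8743.16 to 9967.39 in control and from 32011.2 to 45154.04 in knockdown, 3.98 times as many on average. No other member differed as much between the arms. The log2 difference was 1.92 (SE 0.09, adjusted p = 6.4e-09), and it held in all 18 alternatives. At day 11 it read 12.19, 11.97, 12.11 and 12.17 in control libraries and 14.58, 14.17, 14.51 and 14.29 in knockdown, 5.12 times as many normalized reads (log2 2.28, SE 0.09, adjusted p = 4.71e-08). The ratio was higher at day 11 than at day 7 while both arms had fallen, and the change of the difference between those days, 0.36 (95% interval -0.28 to 0.99), did not pass.

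Scd2 (ENSMUSG00000025203, chromosome 19, 44293674 to 44306864, plus strand), on the same chromosome, is the more abundant desaturase of preadipocytes. It read 14.13, 14.09, 14.18 and 14.05 in day 7 control libraries and 15.09, 15.07, 14.90 and 15.07 in knockdown. Normalized reads were 1.93 times control (log2 0.92, SE 0.05, adjusted p = 3.52e-09), without overlap. At day 11 the ratio was 1.94 (log2 0.91, SE 0.13, adjusted p = 0.000550), with shRNA 1 at 15.02 and 14.95, shRNA 2 at 14.43 and 14.53, and controls from 13.67 to 13.95. In control cells Scd2 fell at every step, whereas in knockdown it rose from day 3 to day 7. The longest transcripts of Scd1 and Scd2 aligned over 1261 bases at 86.8% identity, with an identical run of 147 bases, and Scd1 and Scd3 over 1084 bases at 90.4%, with a run of 185 bases. Reads inside such runs cannot be assigned from sequence alone, and the rule used for them is not given in the sources used here.

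Me1 (ENSMUSG00000032418, chromosome 9, 86581371 to 86695953, minus strand), the cytosolic malic enzyme that yields NADPH, was the only member called by day 3 in the comparison of both hairpins together with control. At day 3 it read 11.28, 11.28, 11.22 and 11.22 in control libraries, 11.84 and 11.99 with shRNA 1, and 11.91 and 11.997 with shRNA 2. Each knockdown library exceeded the highest control. The hairpins' means stood 0.66 and 0.70 above the control mean and differed from each other by 0.04 (95% interval -0.07 to 0.15). Normalized reads were 1.64 times control at day 3 (log2 0.68, SE 0.05, adjusted p = 3.76e-07), 1.73 times at day 7 (0.75, SE 0.08, adjusted p = 1.98e-06) and 1.37 times at day 11 (0.43, SE 0.07, adjusted p = 0.000921). The arms did not overlap on these days. At day 0 they did not overlap either (10.71 to 10.84 against 10.56 to 10.66), but the difference of 0.15 did not pass (95% interval 0.05 to 0.25, adjusted p = 0.112), other than with the hairpins as separate groups (adjusted p = 0.00652).

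Srebf1 (ENSMUSG00000020538, chromosome 11, 60199089 to 60222581, minus strand) followed a course of its own. At day 3, when control cells were at their peak, it read 12.35, 12.38, 12.28 and 12.36 in control libraries and 12.23, 12.22, 12.22 and 12.27 in knockdown, all just below the lowest control. The difference of the means was -0.11 (95% interval -0.19 to -0.02, adjusted p = 0.0578) and did not pass. It passed with the hairpins as separate groups (adjusted p = 0.0103), with median centring (0.0392), with the filter at 50 (0.0474) and without shRNA 2 replicate 2 (0.0384). At day 7 the arms overlapped, 12.16 to 12.18 against 12.18 to 12.38, with a difference of 0.12 (0.01 to 0.23, adjusted p = 0.0703). That difference passed with the hairpins as separate groups (adjusted p = 0.0212), when all 32 libraries shared 1 fit (0.0485) and without shRNA 2 replicate 1 (0.0159). At day 11 it read 11.46, 11.59, 11.46 and 11.61 in control libraries and 11.99, 11.89, 12.01 and 12.11 in knockdown. Normalized reads were then 1.40 times control (log2 0.47, SE 0.06, adjusted p = 0.000122). From day 7 to day 11, Srebf1 fell by 0.64 in control cells and by 0.29 in knockdown. The table counts whole genes, so the SREBP-1a and SREBP-1c transcripts cannot be told apart.

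Mlxipl (ENSMUSG00000005373, chromosome 5, 135089890 to 135138382, plus strand) was at or near 0 throughout. Its day 7 control libraries had 0, 1, 0 and 0 reads, its shRNA 1 libraries 0 and 2, and its shRNA 2 libraries 3 and 5. Up to 3 reads in a library cannot be separated from a count of 0 at this depth, so no fold is given. Its partner Mlx and the related Mlxip were measured. Mlx was called higher at day 7 (0.31, SE 0.06, adjusted p = 0.000708) and Mlxip did not pass on any day.

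**Figure D3:**
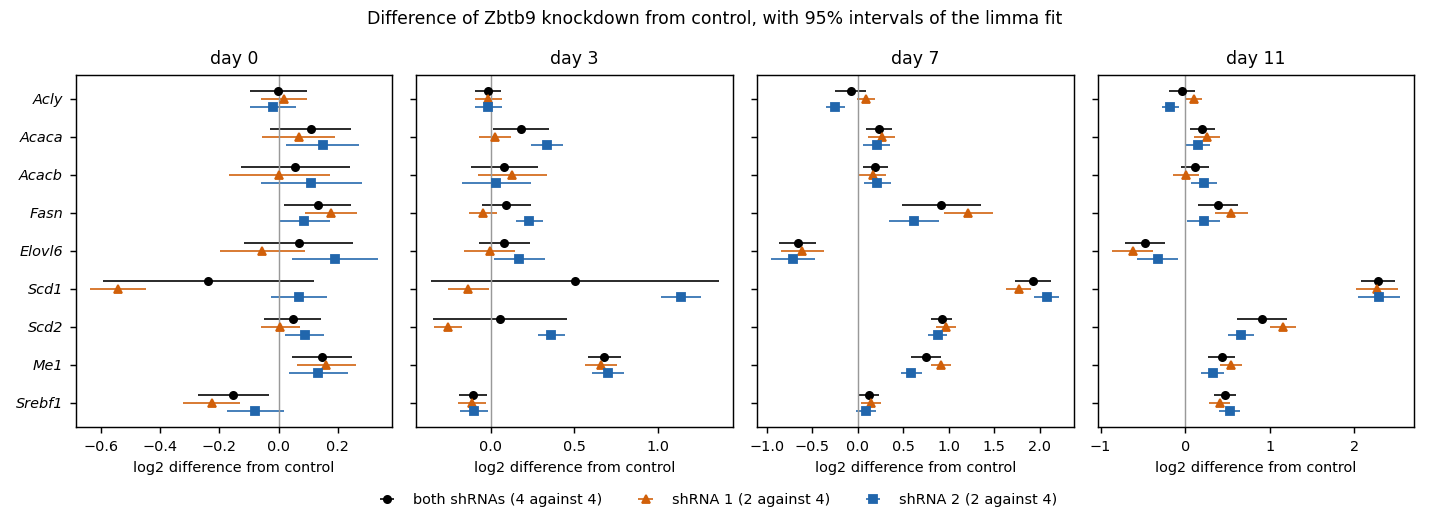
Log2 difference of knockdown from control (horizontal axis, own range per day) for the 9 tested members on each day, with both hairpins together and each alone, and 95% intervals of the limma fits. At day 3 the hairpins lie apart for Scd1 (-0.13 for shRNA 1 and 1.14 for shRNA 2), and at days 7 and 11 both lie to the right of 0 for Scd1, Scd2, Fasn and Me1 and to the left for Elovl6. Fasn with shRNA 2 did not pass at day 11.

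The hairpins were also set against each other, since they are the independent agents of the study. At day 0 shRNA 1 differed from control in 4 members (34.7% of all genes, 15.8% higher and 18.9% lower): Scd1 was lower by -0.54 (SE 0.05, adjusted p = 4.69e-10) and Srebf1 by -0.23, and Fasn (0.18) and Me1 (0.16) were higher. With shRNA 2 no member was called at day 0 (17.6% of all genes were, 7.38% higher and 10.2% lower), and 4 had an unadjusted p under 0.05. For this comparison voom on rebuilt reads called 2 and equal totals 4, so the count depends on the scaling and the model. The hairpins differed in Scd1 (shRNA 2 higher by 0.61), Elovl6 (0.25) and Srebf1 (0.15), where 35% of all genes were called, 18.6% higher and 16.4% lower with shRNA 2. Scd1 read 11.40 and 11.35 with shRNA 1, 11.97 and 12.01 with shRNA 2, and 11.80 to 12.03 in controls, so shRNA 1 lay below all controls before induction. Without the variance trend, Fasn and Me1 were no longer called for shRNA 1 (adjusted p = 0.0604 and 0.0552), nor Elovl6 and Srebf1 between hairpins (0.070 and 0.102). These 4 calls also rested on single libraries. Fasn was lost without shRNA 1 replicate 2 (adjusted p = 0.0689) and Me1 without shRNA 1 replicate 1 (0.290). Between hairpins Elovl6 was lost without either replicate 2 (up to 0.235), and Srebf1 without shRNA 1 replicate 1 or either shRNA 2 library (up to 0.313).

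At day 3 the hairpins differed in 4 members. Scd1 read 12.58 and 12.67 with shRNA 1, 13.76 and 14.03 with shRNA 2, and 12.69 to 12.82 in controls. Scd2 read 14.02 and 14.07 with shRNA 1, 14.58 and 14.75 with shRNA 2, and 14.25 to 14.36 in controls, so the hairpins lay on opposite sides of control. Against control, shRNA 2 was called higher in 5 members (Scd1, Me1, Scd2, Acaca and Fasn, by 1.14, 0.70, 0.36, 0.34 and 0.23) and lower in none, where 31.4% of all genes were called, 16.8% higher and 14.5% lower. With median centring or equal totals that split was 5 and 1. For shRNA 1, Me1 was called higher (0.66) and Scd2 (-0.25) and Srebf1 (-0.11) lower, where 39.4% of all genes were called, 20.6% higher and 18.7% lower. The Srebf1 call (adjusted p = 0.0269) was lost without either shRNA 1 library or control replicate 2 or 4 (adjusted p up to 0.138) and without the variance trend (0.106). Between hairpins the difference was in Scd1 by 1.27 (SE 0.07, adjusted p = 9.19e-11), Scd2 by 0.62, Acaca by 0.31 and Fasn by 0.28, shRNA 2 being higher in all 4 (19.6% of all genes, 10.6% higher and 8.94% lower).

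At day 7 both hairpins were called higher for Scd1 (1.77 and 2.08), Scd2 (0.97 and 0.88), Fasn (1.22 and 0.62), Me1 (0.91 and 0.59) and Acaca (0.26 and 0.21). With shRNA 1, 6 members were called higher and 1 lower (52% of all genes, 27.7% higher and 24.3% lower). The sixth rise was that of Srebf1 (0.15, adjusted p = 0.0207), which was lost without shRNA 1 replicate 1 (0.09, adjusted p = 0.325), with equal totals (0.141), without the trend (0.0920) and without the filter (0.0513). With shRNA 2, 6 were higher and 2 lower (46% of all genes, 24% higher and 22% lower). Its sixth rise was that of Acacb (0.22, adjusted p = 0.0175), lost without shRNA 2 replicate 2 (0.10, adjusted p = 0.394). The hairpins differed in 4 members (16.4% of all genes, 7.52% higher and 8.9% lower): shRNA 2 was lower in Fasn (-0.60), Acly (-0.34) and Me1 (-0.32) and higher in Scd1 (0.31). Without shRNA 1 replicate 2 the number fell to 2, and the Scd1 difference was lost without either replicate 2 (adjusted p up to 0.183) or without the variance trend (0.111). The rise of Acaca with shRNA 2 was lost without the trend as well (0.112), without the filter (0.0782), and without shRNA 2 replicate 2 (0.04, adjusted p = 0.708) or control replicate 1 (0.0573). At day 11 each hairpin had 7 members called, 6 higher and 1 lower with shRNA 1 (43.6% of all genes, 21.4% higher and 22.2% lower) and 5 and 2 with shRNA 2 (36.9%, 17.4% higher and 19.4% lower). Fasn and Acaca were not called with shRNA 2. Scd1 stood at 2.27 with shRNA 1 and 2.29 with shRNA 2, a difference of 0.02 (95% interval -0.26 to 0.31). The hairpins differed in Scd2 (-0.50), Fasn (-0.33), Acly (-0.28) and Me1 (-0.21), shRNA 2 being lower in all 4 (22% of all genes, 11.6% higher and 10.4% lower). That count dropped to 2 without shRNA 2 replicate 1, shRNA 2 replicate 2 or control replicate 2, and without the filter or the trend, where Fasn and Me1 were no longer called. Of 8 fits that left out 1 library, 6 lost the Fasn difference (adjusted p up to 0.254) and 5 the Me1 difference (up to 0.305), in both cases those without shRNA 1 replicate 1, either shRNA 2 library or control replicate 2, for Fasn also control replicate 3 or 4 and for Me1 control replicate 1. With shRNA 2 the day 11 count of 7 dropped to 4 without its replicate 2. Without the library labelled shRNA 1 replicate 2 of day 11, the 7 members called with both hairpins together kept their calls. Acacb was then called higher as well (0.18, adjusted p = 0.0352).

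The log2 difference of knockdown from control was also compared between days. Between day 0 and day 3 it changed for Me1 alone (0.53, SE 0.10, adjusted p = 0.000446), where 6.57% of all 13571 tested genes changed, 3.69% upwards and 2.88% downwards. Between day 3 and day 7 it moved upwards for Scd1 (1.42, SE 0.31, adjusted p = 0.00141), Scd2 (0.87, SE 0.17), Fasn (0.82, SE 0.18) and Srebf1 (0.23, SE 0.07, from -0.11 to 0.12) and downwards for Elovl6 (-0.74, SE 0.13, adjusted p = 5e-05), where 23.1% of all genes changed, 12.9% upwards and 10.2% downwards. Leaving out shRNA 1 replicate 1 of day 7 ended the Srebf1 call (adjusted p = 0.0506). Between day 7 and day 11 it moved downwards for Fasn (-0.53, SE 0.18, adjusted p = 0.0442) and Me1 (-0.32, SE 0.10, adjusted p = 0.0244) and upwards for Srebf1 (0.35, SE 0.07, adjusted p = 0.00106), where 12.7% of all genes changed, 5.05% upwards and 7.66% downwards. The Fasn call was lost in 18 of 32 fits that left out 1 library (adjusted p up to 0.111), and the Me1 call without either shRNA 1 library or control replicate 2 of day 7, shRNA 2 replicate 2 or control replicate 3 of day 11 (adjusted p up to 0.0751).

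Genes that feed the pathway with carbon and NADPH were mostly higher in knockdown at the late days. Of 15 such genes, 10 were called higher and 1 lower at day 7, with a median log2 difference of 0.57 against 0.01 for all genes, of which 24.9% were called higher and 22.6% lower. At day 11, 10 were higher and 2 lower, with a median of 0.29 against -0.01 for all genes, of which 16.8% were higher and 16.2% lower. Slc25a10, the mitochondrial dicarboxylate carrier, rose most on both days, by 1.45 (SE 0.07) and 1.11 (SE 0.08), though at day 0 it was the only gene of the list called and was lower (-0.22). Me3, a mitochondrial malic enzyme, fell most, by 0.46 and 0.82. At day 3, 3 were higher, led by the pyruvate carboxylase gene Pcx (0.36), and 2 lower, led by Idh1 (-0.41), the cytosolic NADPH-yielding isocitrate dehydrogenase, so that 5 of 15 were called where 26.7% of all genes were. The pentose phosphate enzymes split: Tkt (0.69) and Taldo1 (0.84) rose at day 7, and G6pdx, Pgls and Pgd did not pass.

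Of 15 other elongation and desaturation enzymes, 12 were tested at days 0 and 3 and 13 at days 7 and 11. None was called lower on any day, and 1, 5, 8 and 7 were called higher at days 0, 3, 7 and 11, where 0.817%, 14.6%, 24.9% and 16.8% of all genes were. Fads2, a desaturase of polyunsaturated fatty acids, was the 1 gene at day 0 (0.24, SE 0.05). Scd3 rose most at days 3, 7 and 11, by 1.60, 1.51 and 2.59, and shares sequence with Scd1 as given above. The elongases Elovl1 (-0.02, SE 0.05, and -0.10, SE 0.05) and Elovl5 (0.15, SE 0.06, and 0.13, SE 0.07) did not pass at days 7 and 11, against -0.66 and -0.47 for Elovl6. Hacd2, which acts in the elongation cycle after the elongase, rose by 1.24 (SE 0.08) at day 7, in the direction opposite to Elovl6.

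Of 20 regulators of the pathway, 19 were tested. At day 7, 10 were called higher and 2 lower, where 24.9% and 22.6% of all genes were, with a median of 0.17 against 0.01 for all genes. At day 11, 7 were higher and 1 lower, where 16.8% and 16.2% of all genes were, with a median of 0.08 against -0.01. At day 3, 4 of 19 were called, 2 in each direction, where 26.7% of all genes were. Insig1, which holds SREBPs in the endoplasmic reticulum and is itself a target of SREBPs, rose most at day 7, by 1.49 (SE 0.09, adjusted p = 2.16e-08). Thrsp, a protein known for following lipogenesis in liver and fat, rose most at day 11, by 1.83 (SE 0.24, adjusted p = 0.000295). Mid1ip1, a partner of the acetyl-CoA carboxylases, was higher at day 3 (0.37, the largest rise of that day) and fell most at day 7 (-0.45). Mbtps1, a protease that releases SREBPs, was lower at day 11 (-0.29, the largest fall). Nr1h2, a sterol-sensing nuclear receptor, fell most at day 3 (-0.29), and Srebf2, whose product SREBP-2 drives cholesterol synthesis, was the 1 regulator called at day 0 (-0.20).

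**Figure D4:**
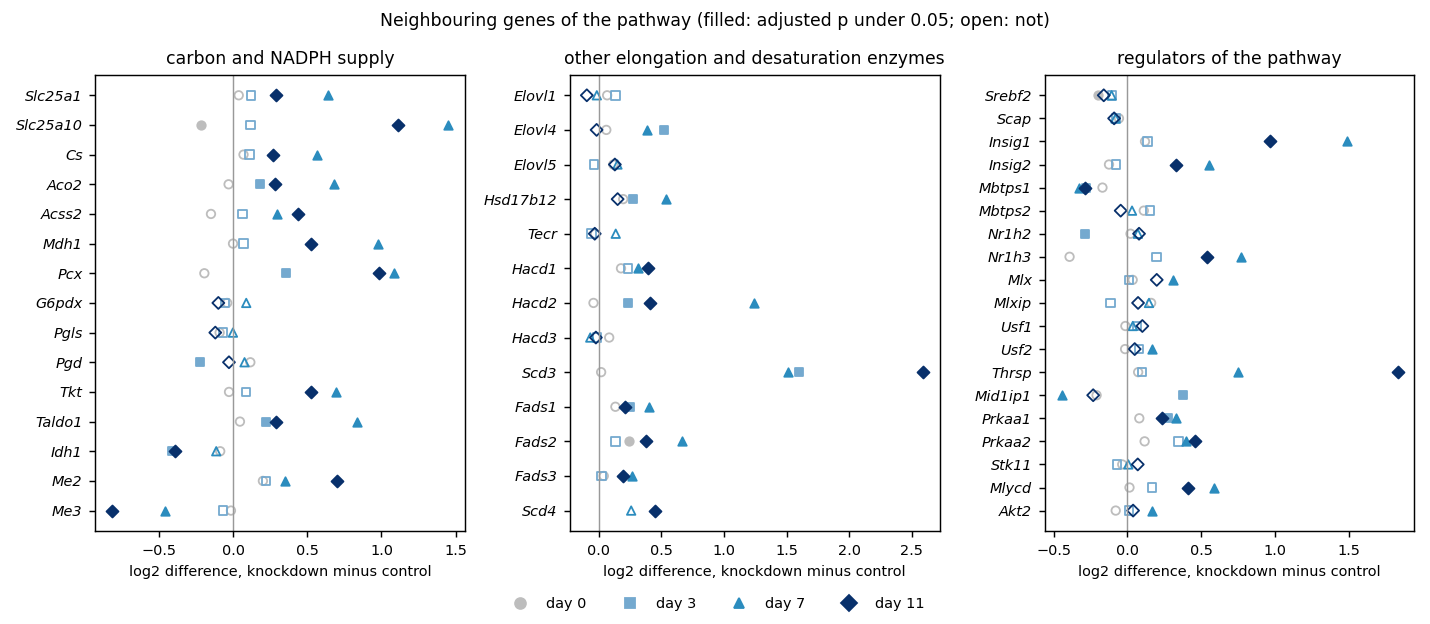
Log2 difference of knockdown from control (horizontal axis) of the other genes of the pathway in 3 lists, 1 marker per gene and day, filled where adjusted p is under 0.05. Most filled points at days 7 and 11 lie to the right of 0, led by Scd3 at 2.59, Thrsp at 1.83, Insig1 at 1.49 and Slc25a10 at 1.45, while Me3 lies furthest left at -0.82.

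The marker lists gave the largest shifts beside these. Among adipocyte markers, Slc2a4, the insulin-regulated glucose transporter, rose most at days 7 (2.84) and 11 (2.70), Cidec, a lipid droplet protein, at day 3 (2.01), and Lpl at day 0 (0.19). Among preadipocyte and fibroblast markers, Pdgfra fell most at days 7 (-1.03) and 11 (-0.97), Ly6a at day 3 (-0.64) and Col1a1 at day 0 (-0.28). At day 3, 2 of these 10 were called lower, where 12.1% of all genes were, and Dlk1 was higher (0.36). At day 11, 5 of 10 were lower, where 16.2% of all genes were. Of the muscle and bone list only Des and Alpl were tested. Alpl was higher at day 3 and both were at days 7 and 11, where 14.6%, 24.9% and 16.8% of all genes were. The median log2 difference of these 2 genes was 0.776, 2.025 and 1.396 on those days. This list summed to between 1154.9 and 1518.5 normalized reads in day 7 knockdown libraries and to between 349.9 and 434.9 in day 7 controls. Of the endothelial list only Pecam1 and Vwf were tested, and Vwf was called lower at day 11 (-0.51), where 16.2% of all genes were.

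For 4 members the genes with the most similar course were sought among 10712 genes, by the root mean square difference of centred log2 values over the 32 libraries. For Scd1 they were Peg10 (0.33), Lpin1 (0.40) and Cebpa (0.44), against a root mean square of 1.16 for Scd1 itself. For Srebf1 they were Eef2kmt (0.14), Itgb3 (0.16) and Rogdi (0.16), against 0.59. For Scd2 they were Ttc7b (0.24), Ppif (0.24) and Otx1 (0.25), against 0.38, and for Fasn Tspan14 (0.21), Entpd6 (0.22) and Dot1l (0.23), against 0.45. The members themselves were left out of the genes searched, so how alike their courses are was not compared. This is a description over libraries that share the same days and hairpins.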

How the data were processed

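RNA-seq was made from 32 libraries. The authors' deposited table holds log2 values, as the values themselves show (-1.56 to 17.99), and no header or label names the transform. Their form is that of a regularized log, which draws genes with few reads towards their mean. The submitters' processing notes name TopHat2 2.1.0, Bowtie2 2.2.6, SAMtools 1.3.1 and HTSeq 0.6.1. Genome build, annotation and strand setting are not given in the sources used here.

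limma 3.58.1 (R 4.3.3; mean-variance trend, robust empirical Bayes) was run on the deposited values. A gene was tested where 4 or more libraries of the fit had a back-transformed value (2 to the deposited value) of 10 or above. P-values were adjusted by Benjamini-Hochberg over all genes tested, and a gene was called at an adjusted p under 0.05. Fits were 1 per day (both hairpins as 1 group, or 3 groups), 1 per arm across days, and 1 of all libraries for effects between days.

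Whole reads were rebuilt by inverting the transform: 97.8% of values came within 0.1 of a whole read (20% by chance), and the members' values within 0.48, so a member's count can be off by 1. The 95% intervals are those of the limma fits and measure the spread between libraries, and the floor of 3 reads covers counting error only. Exon lengths and positions are from GENCODE M21 (20521 IDs matched) and may differ from the authors' annotation. Replicate pairs all differed beyond sampling noise (chi-square per degree of freedom 3.0 to 11.75). The fits and the inversion were tested on simulated data.

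Members and gene lists were chosen with earlier results of these data known. Named were all members, Zbtb9, the largest called rise and fall of each list and day, and the 3 closest genes for Fasn, Scd1, Scd2 and Srebf1. Other genes of the lists (G6pdx, Pgls, Pgd, Tkt, Taldo1, Hacd2, Elovl1, Elovl5, Mlx, Mlxip) were named after their values were seen. Alternatives were other filters, scalings, variance models, transforms and groupings, a replicate block, and leaving out each library.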

Additional observations from a re-analysis of the deposited data

Results flagged for a closer look

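Differences of the knockdown effect between days, tested as an interaction with limma over all libraries, were past the threshold 9 times among the members. Between days 0 and 3 the effect rose for Me1 (0.53), where 6.57% of all 13571 tested genes changed. Between days 3 and 7 it rose for Scd1 (1.42), Scd2 (0.87), Fasn (0.82) and Srebf1 (0.23) and fell for Elovl6 (-0.74), where 23.1% changed. Between days 7 and 11 it fell for Fasn (-0.53) and Me1 (-0.32) and rose for Srebf1 (0.35), where 12.7% changed.

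In 3 control groups a library stood far from the other 3, as its gap divided by the range shows: Acacb in replicate 4 of day 7 (0.883), and Mlxipl in replicate 4 of day 0 (0.986) and replicate 2 of day 7 (0.955). The Mlxipl values rest on 4 reads and 1 read against 0. About 1 in 20 groups would be marked this way by chance.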

How the results depend on the processing

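Of 3014 values of 146 member results under the alternatives, 2864 kept direction and side of the threshold, 121 lost a call, 18 gained one and 11 changed sign. The sign changes were in differences that were not called. Acly at day 0 stood at 0.0262 with equal totals, 0.0055 with median centring and -0.0212 to 0.0281 leaving out 1 library. Leaving out 1 library gave -0.0929 to 0.015 for Acly at day 11, -0.0118 to 0.1051 and -0.0019 to 0.1352 for Acacb at days 0 and 3, and -0.076 to 0.1652 for Scd2 at day 3.

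Counts of called members moved as follows, and the cause was not tested. For knockdown against control, taking the hairpins as separate groups gave 4 at day 0 (otherwise 0) and 5 at day 3 (otherwise 1), and 2 for the change of effect from day 0 to day 3 (otherwise 1). The filter at 50 and median centring gave 2 at day 3. For shRNA 1 at day 0, dropping the variance trend gave 2 in place of 4. For shRNA 2 at day 0, with 0 called, equal totals gave 4, the filter at 50 and voom 2, and log2 of reads plus 1 gave 1. Between the hairpins, no filter or no trend gave 1 at day 0 (otherwise 3) and 2 at day 11 (otherwise 4). Leaving out 1 library gave 0 to 3 for shRNA 2 at day 0 (moved by control replicate 2 or 4) and 4 to 8 at day 11, 1 to 2 for knockdown at day 3 (shRNA 1 replicate 1 or shRNA 2 replicate 2), 1 to 4 (shRNA 2 replicate 2), 2 to 4 and 2 to 4 between hairpins at days 0, 7 and 11, and 1 to 2 (shRNA 1 replicate 1 of day 3) and 1 to 3 for the changes of effect from day 0 to 3 and day 7 to 11.

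Replicate numbers were not taken to pair the libraries, since not every pair correlated over 0.1. Deviations of same-numbered libraries of 1 day correlated from -0.005 to 0.215, over 0.1 in 3 of 24 pairs, all 3 of them pairs of a knockdown and a control library of day 11 (0.215, 0.126 and 0.142). Across days, 4 of 24 pairs of 1 shRNA (0.102 and 0.105, all from day 7 to day 11) and 1 of 24 control pairs (0.119) were over 0.1. The 2 libraries of a hairpin on a day deviate from their mean as mirror images. Pairs between hairpin groups therefore give the same correlation for both replicate numbers, and each value is counted for both. In the fits of 1 day, the knockdown libraries carry replicate numbers 1 and 2 only. The block therefore takes control replicates 3 and 4 out of the comparison, and its calls rest on fewer libraries. What this adds to the lost calls was not tested. With the replicate block, 4 members were called at day 11 (otherwise 7) and 1 for shRNA 2 at day 0 (otherwise 0). The 3 lost at day 11 were Acaca (adjusted p = 0.126), Fasn (0.106) and Elovl6 (0.105). The block also ended the calls of Elovl6 (0.0824) and Acacb (0.117) for shRNA 2 at day 11, Acacb (0.0875) and Zbtb9 (0.119) at day 7, Me1 for shRNA 1 at day 0 (0.0765) and the change of the Fasn effect from day 7 to day 11 (0.0691). Over all genes the block took the calls from 430, 3506, 6328 and 4382 to 0, 845, 4112 and 1652 at days 0, 3, 7 and 11.

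Other counts over all genes also depended on the fit. With separate hairpins they were 3340 at day 0, 5311 at day 3, and 2484, 4961 and 3540 for the changes of effect (otherwise 892, 3137 and 1725). Without the trend they were 261 at day 0, 1206 for shRNA 2 at day 0 (otherwise 2323), and 1454 and 1035 between hairpins at days 3 and 7 (otherwise 2572 and 2183). No filter gave 1710 between hairpins at day 3. Leaving out 1 library gave as few as 111 at day 0 (control replicate 3), 946 for shRNA 2 at day 0 (its replicate 2), and 1633, 1003 and 1479 between hairpins at days 3, 7 and 11 (shRNA 1 replicates 1, 2 and 2; the last otherwise 2916). Depth limits Mlxipl and Zbtb9, with 0 to 5 and 0 to 23 reads per library.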
